A study of Mus musculus with 12 samples.

Results

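The choroid plexus is the secretory tissue of the brain ventricles, and 10 genes that are highly expressed in its epithelium were followed here over pieces of embryonic mouse cortex: Ttr, Folr1, Clic6, Kcnj13, Kl, Otx2, Aqp1, Enpp2, Sostdc1 and Kcne2. All probe sets annotated to 1 of these genes alone were used. This gave 15 probe sets for 9 of the 10 genes, out of 34958 probe sets that name 1 gene and 45101 on the array. Enpp2, which encodes autotaxin, has no such probe set in the annotation used here and was not analysed here. RNA came from cortex at embryonic day 14 and was hybridised to 12 one-colour arrays, 3 in each of 4 groups: caudal cortex of AP2gamma knockout animals (caudal KO, animals 1, 2 and 13), caudal cortex of wild-type animals (caudal WT, animals 4, 6 and 14), rostral cortex of knockout animals (rostral KO, animals 7, 8 and 15) and rostral cortex of wild-type animals (rostral WT, animals 10, 12 and 16). The series asks how AP2gamma, the transcription factor encoded by Tfap2c, acts on basal progenitors of the cortex. The labels give every array its own animal number and do not describe the knockout allele, the strain or where the cortex was cut. Values are the authors' log2 values, a value at or below the median of the whole table (5.21) is called dim, and a probe set was tested when it exceeded 5.21 on at least 3 of the 12 arrays.

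The choroid plexus of the forebrain develops at the medial edge of the cortex, next to the cortical hem, where BMP signals turn neuroepithelium into a thin secretory epithelium. This epithelium makes the cerebrospinal fluid by moving ions and water, carries hormones and vitamins into it, and bears motile cilia. The tissue can be attached to a piece of caudal cortex or left off it when the cortex is dissected. In bulk RNA, fewer choroid plexus cells and less RNA per cell cannot be told apart.

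One array stood apart from the other 11 before any comparison was made. On caudal WT animal 6, 12 of the 15 probe sets had their highest value of the 12 arrays, against 11.5% of all probe sets on the array. On 11 of the 15, caudal WT animal 6 lay more than 1 log2 unit above each of the other 11 arrays, against 0.297% of all probe sets. Only 7 of the 45101 probe sets lay more than 3 log2 units above each other array there, and all 7 belonged to these genes: 4 to Ttr and 1 each to Kcne2, Clic6 and Sostdc1. The mean over the 9 genes, each taken on its probe set of highest mean, was 7.15 on caudal WT animal 6 and between 2.69 and 4.47 on the other arrays. Of the 9 measured genes, 7 had their highest value on caudal WT animal 6 on every probe set they have, and Otx2 and Kl were the exceptions. The members' differences that involve caudal WT cortex are therefore given with and without this array, while counts of groups that do not overlap are given on all 12 arrays.

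Other features of this array were measured beside the choroid plexus genes. Dorsal cortex markers were bright on all 12 arrays, with a mean over 8 genes of 10.41 on caudal WT animal 6 and 10.33 to 10.72 on the other arrays, so the piece carried cortex RNA like the rest. Tfap2c, the targeted gene, read 7.71, 7.86 and 7.44 in caudal KO and 9.19, 8.84 and 8.64 in caudal WT. Rostral KO pieces gave 8.11, 8.63 and 8.09 for it, while rostral WT pieces gave 9.06, 9.0 and 8.54, so 1 rostral KO value, on animal 8, overlapped the WT values on this probe set. On the other Tfap2c probe sets rostral KO and WT did not overlap, with 7.40 to 7.79 against 8.07 to 8.44 and with 7.13 to 7.5 against 7.65 to 8.20. Xist, a transcript of the inactive X chromosome, read 11.32 on caudal WT animal 6, 11.89 on rostral WT animal 12 and 5.48 or lower elsewhere. The sex-linked gene Eif2s3y read 0.20 and 2.60 on these 2 arrays and 8.49 or higher elsewhere. Both arrays are WT, so by these genes sex was not balanced between KO and WT, and its part in the values was not tested. The mean over the 9 choroid plexus genes was 3.56 on rostral WT animal 12, within the range of the other arrays.

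**Figure D1:**
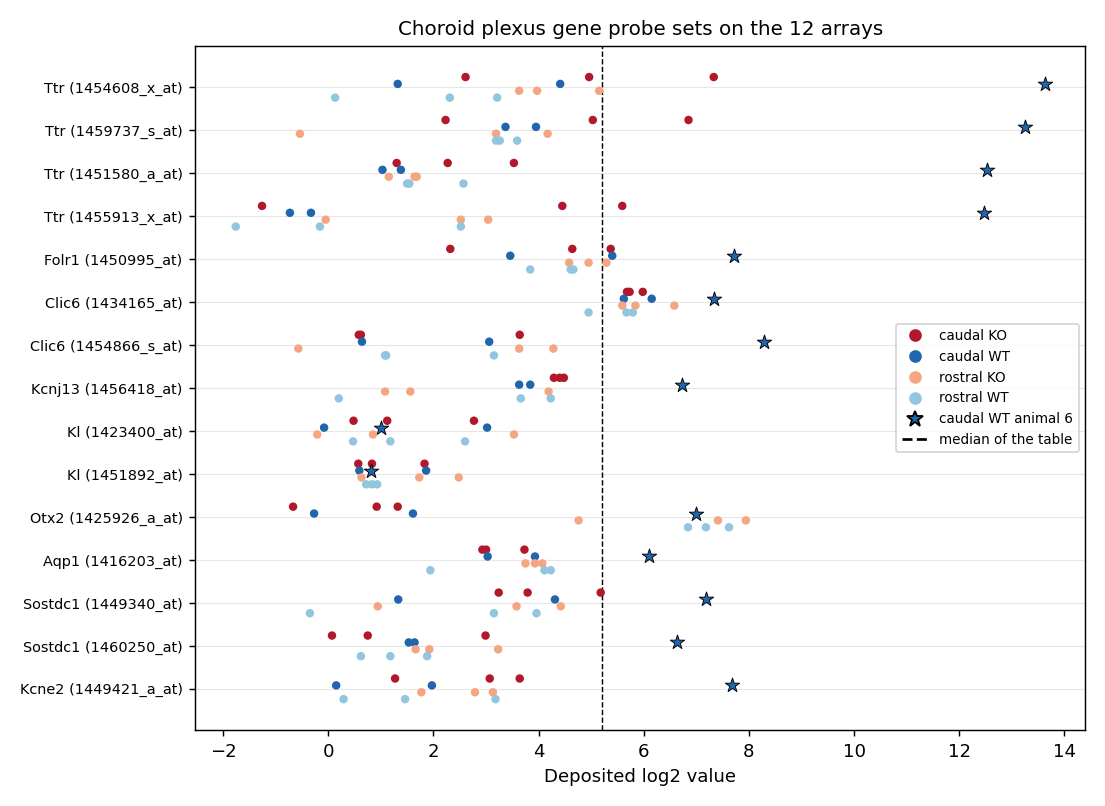
Log2 values (x axis) of the 15 probe sets of choroid plexus genes (rows), with 1 point per array coloured by group and a star for caudal WT animal 6. The dashed line is the median of the table, 5.21. The star lies right of all other points on 12 of the 15 rows, and the exceptions are the 2 probe sets of Kl and that of Otx2.

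Promoter sequences are shown for 3 members that were high on the same piece and for Otx2, which behaved otherwise. RefSeq windows (GRCm38.p6) of 250 bases before to 50 bases after a gene start were matched by symbol. Those used here cover 5 of the 10 genes, with 9 windows in all. There were 4 for Otx2, 2 for Kcne2 and 1 each for Kcnj13, Kl and Aqp1. Folr1, Clic6, Sostdc1 and Enpp2 had no window, and Ttr was left out of this part and of its counts. A pair of motifs was searched on both strands, and they do not overlap in any of these windows. TAATCC is the core bound by OTX homeodomain proteins, and GCCNNNGGC is the core bound by AP2 factors. Of the 9 windows, 1 of Otx2 held TAATCC, as its reverse complement GGATTA, and the Aqp1 window held the palindrome GCCNNNGGC. Among all 32851 windows of this length, 7.06% held TAATCC and 16.6% held GCCNNNGGC. For each of 4 members 1 window follows, 5′ to 3′, with motif matches in capitals. Of the 4 Otx2 windows the only 1 with a match is shown, and of the 2 Kcne2 windows 1 is shown. The windows of Kcne2 and Kcnj13 have no match.
Kcne2, chr16:92292139-92292438, plus strand: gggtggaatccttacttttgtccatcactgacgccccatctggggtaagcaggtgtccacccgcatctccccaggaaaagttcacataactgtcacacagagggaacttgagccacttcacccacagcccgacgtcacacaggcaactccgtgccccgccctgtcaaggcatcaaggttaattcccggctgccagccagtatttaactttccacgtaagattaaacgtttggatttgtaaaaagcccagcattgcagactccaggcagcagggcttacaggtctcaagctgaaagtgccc
Kcnj13, chr1:87394680-87394979, minus strand: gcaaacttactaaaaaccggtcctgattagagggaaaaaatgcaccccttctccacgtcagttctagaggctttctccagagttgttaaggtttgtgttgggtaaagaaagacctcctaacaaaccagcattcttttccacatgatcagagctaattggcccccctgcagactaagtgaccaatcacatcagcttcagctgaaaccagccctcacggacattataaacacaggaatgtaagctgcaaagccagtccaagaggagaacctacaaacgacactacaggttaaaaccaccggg
Aqp1, chr6:55336049-55336348, plus strand: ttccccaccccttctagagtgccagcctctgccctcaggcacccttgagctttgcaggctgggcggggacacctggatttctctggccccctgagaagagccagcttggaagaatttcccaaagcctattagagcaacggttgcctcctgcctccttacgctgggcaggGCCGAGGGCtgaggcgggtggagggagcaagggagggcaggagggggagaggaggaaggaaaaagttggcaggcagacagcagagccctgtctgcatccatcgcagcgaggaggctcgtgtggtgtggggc
Otx2, chr14:48665060-48665359, minus strand: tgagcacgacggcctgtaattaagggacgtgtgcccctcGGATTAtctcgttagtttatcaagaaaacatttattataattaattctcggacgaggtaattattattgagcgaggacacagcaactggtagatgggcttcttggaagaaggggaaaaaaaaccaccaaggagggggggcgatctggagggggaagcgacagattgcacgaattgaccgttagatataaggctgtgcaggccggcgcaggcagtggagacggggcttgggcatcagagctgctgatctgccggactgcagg

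Ttr encodes transthyretin, the carrier of thyroid hormone that choroid plexus epithelium secretes in large amounts. On its probe set of highest mean (1454608_x_at) Ttr read 4.96, 2.61 and 7.33 in caudal KO pieces 1, 2 and 13, against 4.41, 13.63 and 1.32 in caudal WT pieces 4, 6 and 14. In rostral cortex Ttr read 3.97, 3.63 and 5.15 in KO pieces 7, 8 and 15, against 2.31, 3.21 and 0.13 in WT pieces 10, 12 and 16. Caudal WT animal 6 was far above every other array, and the KO and WT values overlapped in caudal cortex. The other 3 Ttr probe sets read 12.47 to 13.24 on this array. On 1451580_a_at the other 11 arrays lay between 1.03 and 3.53, all dim.

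Caudal KO animal 13 had the second highest Ttr value on all 4 probe sets. It read 7.33 on 1454608_x_at, 6.85 on 1459737_s_at, 5.59 on 1455913_x_at and 3.53 on 1451580_a_at. On the 3 probe sets where caudal KO animal 13 was not dim, caudal WT animal 6 was 78.6-fold, 83.6-fold and 118-fold above it. Of the other genes, only Kcnj13 also ranked second there, at a dim value. Caudal KO animal 13 had the lowest value of the 12 arrays for Folr1, Otx2, Kl 1451892_at and Sostdc1 1460250_at. On the other probe sets of Kl and Sostdc1 it ranked 6 and 8. Probe sets whose names end in x_at or s_at can bind related transcripts, and 1451580_a_at is the only Ttr probe set without such an ending.

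Folr1 encodes the folate receptor that takes folate into the cerebrospinal fluid. Folr1 (1450995_at) read 5.37, 4.64 and 2.32 in caudal KO pieces 1, 2 and 13, against 5.40, 7.71 and 3.46 in caudal WT pieces 4, 6 and 14. In rostral cortex Folr1 read 5.29, 4.95 and 4.58 in KO pieces 7, 8 and 15, against 4.61, 4.66 and 3.84 in WT pieces 10, 12 and 16. Caudal WT animal 6 was high, the other 11 arrays lay between 2.32 and 5.40, and the groups overlapped. Folr1 passed the filter through 4 arrays, of which 3 read only 5.29 to 5.40.

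The ion channel genes all had their highest value on caudal WT animal 6. Kcne2 encodes a potassium channel subunit of the apical membrane. Kcne2 (1449421_a_at) read 3.07, 3.64 and 1.27 in caudal KO pieces 1, 2 and 13, against 0.15, 7.67 and 1.97 in caudal WT pieces 4, 6 and 14. In rostral cortex it read 1.77, 3.13 and 2.79 in KO pieces 7, 8 and 15, against 0.29, 1.46 and 3.18 in WT pieces 10, 12 and 16. Kcne2 was dim on all arrays but caudal WT animal 6, where it lay 4.03 log2 units above the next array.

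Kcnj13 encodes the inward rectifier potassium channel Kir7.1, which is also found in the pigmented epithelium of the eye. Kcnj13 (1456418_at) read 4.29, 4.40 and 4.48 in caudal KO pieces 1, 2 and 13, against 3.84, 6.73 and 3.63 in caudal WT pieces 4, 6 and 14. In rostral cortex it read 1.08, 1.56 and 4.19 in KO pieces 7, 8 and 15, against 3.66, 4.23 and 0.20 in WT pieces 10, 12 and 16. Kcnj13 was above the median of the table on caudal WT animal 6 alone.

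Clic6 encodes a chloride intracellular channel protein. On the brighter of its 2 probe sets (1434165_at) Clic6 read 5.73, 5.98 and 5.68 in caudal KO pieces 1, 2 and 13, against 6.15, 7.33 and 5.62 in caudal WT pieces 4, 6 and 14. In rostral cortex this probe set read 5.59, 5.84 and 6.58 in KO pieces 7, 8 and 15, against 5.67, 5.79 and 4.95 in WT pieces 10, 12 and 16. It was the only member probe set above the median of the table on nearly all arrays (11 of 12), and caudal WT animal 6 exceeded the next array, rostral KO animal 15, by 0.75. The dimmer probe set (1454866_s_at) read 8.29 on caudal WT animal 6 and 4.28 or lower on the other 11 arrays, a gap of 4.01. The 2 probe sets correlated with r = 0.29 over those 11 arrays, so they did not rank the pieces alike.

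Aqp1 encodes the water channel of the apical membrane, and red blood cells and some vessels make it too. Aqp1 (1416203_at) read 3.73, 3.0 and 2.93 in caudal KO pieces 1, 2 and 13, against 3.03, 6.09 and 3.93 in caudal WT pieces 4, 6 and 14. In rostral cortex it read 3.93, 4.07 and 3.75 in KO pieces 7, 8 and 15, against 4.11, 1.94 and 4.23 in WT pieces 10, 12 and 16. Aqp1 was dim on every array but caudal WT animal 6. Red blood cell genes had a mean over 8 genes of 6.88 there and 6.55 to 7.10 on the other arrays, and vascular genes a mean over 13 genes of 6.57 against 6.06 to 6.89.

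Sostdc1 encodes a secreted antagonist of BMP and Wnt signals. On its probe set of highest mean (1449340_at) Sostdc1 read 5.18, 3.79 and 3.24 in caudal KO pieces 1, 2 and 13, against 1.33, 7.18 and 4.31 in caudal WT pieces 4, 6 and 14. On 1460250_at it read 6.64 on caudal WT animal 6 and 0.07 to 3.23 on the other arrays. Both probe sets were dim on all arrays but caudal WT animal 6. In rostral cortex 1449340_at read 0.94, 3.58 and 4.42 in KO pieces 7, 8 and 15, against 3.96, 3.15 and -0.35 in WT pieces 10, 12 and 16.

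Kl encodes klotho, a co-receptor for FGF23 that is made in the kidney and in mature choroid plexus. Both Kl probe sets were dim on all 12 arrays, with 3.53 as the highest value. On caudal WT animal 6 they read 1.00 and 0.81, which was the seventh and the eighth highest of the 12 values. Kl thus did not follow the other members on this piece.

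Otx2 showed another pattern. It encodes the homeodomain factor that specifies choroid plexus epithelium and is known from forebrain regions outside it. Otx2 (1425926_a_at) read 1.32, 0.92 and -0.67 in caudal KO pieces 1, 2 and 13, against 1.61, 7.00 and -0.27 in caudal WT pieces 4, 6 and 14. In rostral cortex Otx2 read 4.76, 7.41 and 7.94 in KO pieces 7, 8 and 15, against 7.62, 7.18 and 6.84 in WT pieces 10, 12 and 16. Caudal WT animal 6 had the only caudal value above the median of the table, and it lay within the range of the rostral arrays. On the rostral arrays high Otx2 came without a high mean of the other members. The mean over the other 8 genes was 3.26, 3.32 and 4.04 in rostral KO and 3.40, 3.11 and 2.17 in rostral WT, against 7.17 on caudal WT animal 6.

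**Figure D2:**
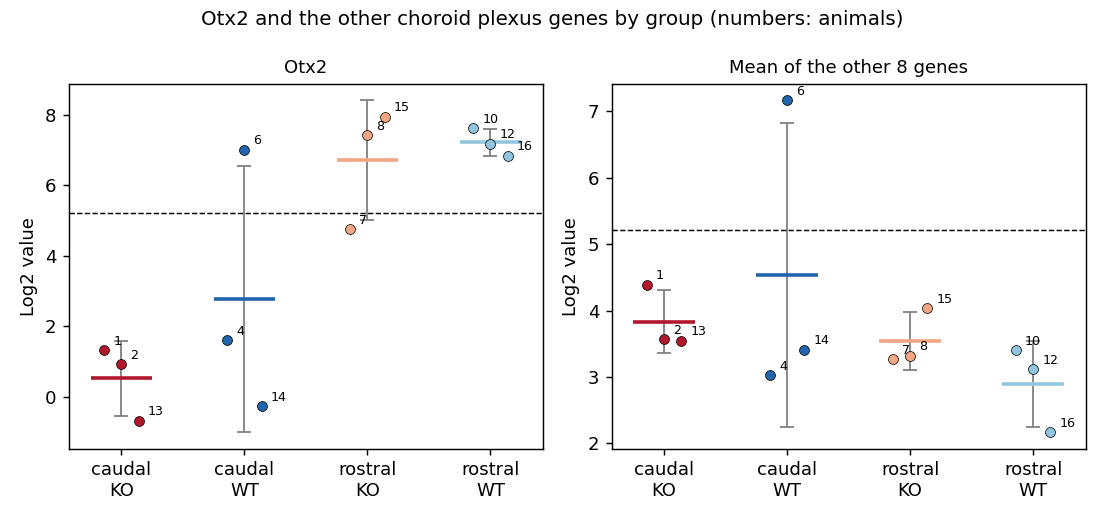
Log2 values of Otx2 (left) and of the mean over the other 8 choroid plexus genes (right) in the 4 groups, with 1 point per array numbered by animal, the group mean as a bar, its SD as a whisker (n = 3) and the median of the table as a dashed line. Otx2 is high in 5 of the 6 rostral pieces and on caudal WT animal 6, whereas the mean over the other 8 genes lies above the dashed line on caudal WT animal 6 alone.

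The region comparison asks how caudal and rostral cortex differ. Averaged over both genotypes, Otx2 was lower in caudal cortex by a log2 difference of -5.30 ± 1.03 (SE, limma adjusted p = 0.017). Among 23 alternatives 19 passed as well, the one without rostral WT animal 12 at an adjusted p of 0.050 by limma, and their adjusted p from limma lay between 0.00067 and 0.11. Otx2 was the only 1 of the 3 tested member probe sets to pass, where 2.35% of the 24676 tested probe sets passed. Of all tested probe sets, 1 had a larger fall, a probe set of Isl1, which was named after its values were seen. Without caudal WT animal 6 the difference was -6.36 ± 0.68 (limma adjusted p = 0.00093, with 2.29% of probe sets past the threshold). Without this array Otx2 was dim on all caudal pieces and passed the filter through 5 rostral arrays, where it is high, so this p adds no support. On all 12 arrays Otx2 passed the filter through 6 arrays, of which 5 were rostral, so the filtered p of 0.017 has the same limit. In the fit of all probe sets, with no filter, the limma adjusted p was 0.019 on 12 arrays and 0.00067 without caudal WT animal 6. Leaving out that array together with the filter was chosen after the values were seen, so the p of 0.00067 adds no support. With dim values raised to 5.21 it was -1.52 ± 0.44 and did not pass (limma adjusted p = 0.11), and it did not pass without rostral KO animal 8 (0.061), rostral KO animal 15 (0.051) or rostral WT animal 10 (0.057) either.

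Within 1 genotype the region difference of Otx2 did not pass in the fit of the 12 arrays without further terms. In KO cortex caudal Otx2 averaged 0.53 ± 1.05 (SD, n = 3) and rostral Otx2 6.70 ± 1.71, a difference of -6.18 ± 1.46 (SE, limma adjusted p = 0.11) where 0.369% of probe sets passed. With an additive term for animals 13 to 16 it passed at -6.18 ± 1.37 (SE, limma adjusted p = 0.048), and with array weights at -5.71 ± 1.11 (SE, limma adjusted p = 0.020). All 3 caudal KO values were dim, and against the limit of 5.21 Otx2 was at least 2.81-fold lower in caudal than in rostral KO cortex. In WT cortex caudal Otx2 averaged 2.78 ± 3.77 (SD, n = 3) and rostral Otx2 7.21 ± 0.39, a difference of -4.43 ± 1.46 (SE, limma adjusted p = 0.32) where 0.336% of probe sets passed. Without caudal WT animal 6 both passed, at -6.18 ± 0.91 in KO (limma adjusted p = 0.017, with 0.319% of probe sets past the threshold) and -6.54 ± 1.02 in WT (limma adjusted p = 0.034, with 0.274%). The KO difference itself was the same in both fits, and its SE was 0.91 without that array, against 1.46 with it. Otx2 entered each of these filtered fits mainly through rostral arrays, where it is high, so the p-values that passed here add no support. In the fit of all probe sets the limma adjusted p was 0.14 in KO and 0.39 in WT on 12 arrays. Without caudal WT animal 6 it was 0.011 in KO and 0.024 in WT. That array held the only caudal Otx2 value above the median of the table. Leaving it out together with the filter was chosen after the values were seen, so these p-values add no support either.

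The other members showed no region difference past the threshold. Among the tested probe sets Clic6 (1434165_at) differed by 0.90 ± 0.40 between caudal and rostral WT cortex (SE, limma adjusted p = 0.58), and by 0.42 ± 0.35 without caudal WT animal 6 in the fit of all probe sets. Folr1 differed by 1.15 ± 0.94 in WT (limma adjusted p = 0.87), and by 0.06 ± 0.80 without that array. Ttr, not tested because it is dim on all but 2 arrays, had a caudal minus rostral difference of 4.57 in WT, and of 0.98 without it. Over the 9 genes the median difference in WT was 1.15, with 7 higher, and 0.06 without caudal WT animal 6, where the median over all 18194 named genes was -0.02.

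The overlap of the groups was also counted. Caudal and rostral WT arrays were apart on 0 of the 15 member probe sets, against 11.1% of all probe sets. Caudal and rostral KO arrays were apart on 3 of the 15, against 14.5% of all probe sets: Otx2 and Aqp1 were lower in caudal KO cortex and Kcnj13 was higher. Aqp1 and Kcnj13 were dim in all these arrays, and neither passed in the fit of all probe sets (Aqp1 -0.69 ± 0.77, limma adjusted p = 0.91, and Kcnj13 2.11 ± 1.11, limma adjusted p = 0.69).

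The knockout comparison asks which genes depend on AP2gamma. No member passed in caudal cortex with limma, in rostral cortex, averaged over both regions or in the difference of the KO effects, and none of the 3 tested probe sets had an unadjusted p under 0.05 in any of these. The shares of all tested probe sets that passed were 0%, 0%, 0.00811% and 0%. In caudal cortex the 9 genes had a median KO minus WT difference of -0.61 with 8 lower, and of -0.02 with 5 lower without caudal WT animal 6, where the median over all named genes was 0.00. Averaged over both regions the median was -0.02, and 0.13 without that array. The caudal KO effect minus the rostral KO effect had a median of -1.53 with 7 lower, and of 0.01 with 4 lower without that array. Of the 15 probe sets, 8 changed the sign of their caudal KO minus WT difference when that array was left out. No probe set passed then either, with 0% of all tested probe sets past the threshold.

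Values of single genes without caudal WT animal 6 are from the fit of all probe sets. Ttr (1454608_x_at) averaged 4.97 ± 2.36 in caudal KO and 6.45 ± 6.41 in caudal WT (SD, n = 3 each), a difference of -1.48, and the difference was 2.11 ± 1.31 without caudal WT animal 6 (SE, fit of all probe sets). Otx2 differed by -2.25 ± 1.46 (SE, limma adjusted p = 1), and by -0.14 ± 0.92 without that array. Folr1 differed by -1.41 ± 0.94 (SE, limma adjusted p = 1), and by -0.32 ± 0.80 without it. Clic6 (1434165_at) differed by -0.57 ± 0.40 (SE, limma adjusted p = 1), and by -0.09 ± 0.35 without it. Of the dim genes, Aqp1 differed by -1.12, Kcne2 by -0.61, Kcnj13 by -0.34 and Sostdc1 by -0.20, and without caudal WT animal 6 Aqp1 differed by -0.25, Kcne2 by 1.60, Kcnj13 by 0.66 and Sostdc1 by 1.25. The KO and WT arrays of caudal cortex were apart on 0 of the 15 probe sets, against 8.04% of all probe sets.

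**Figure D3:**
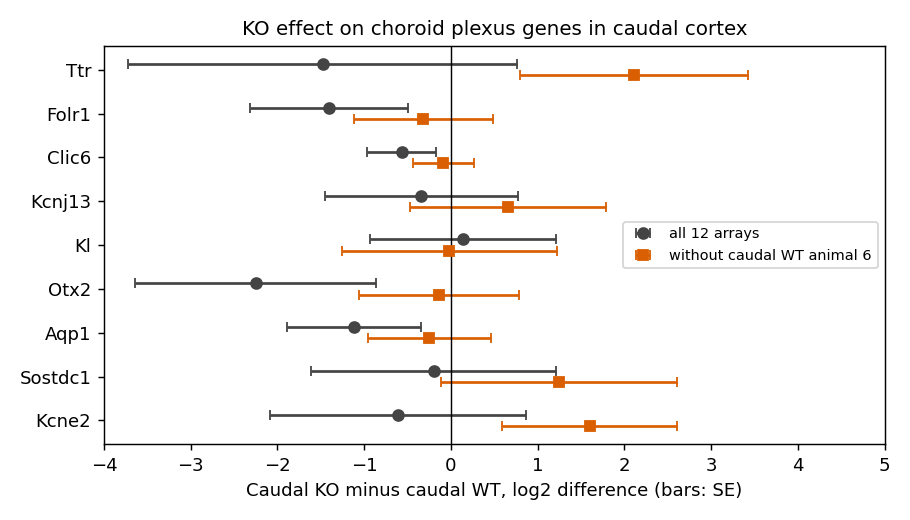
Caudal KO minus caudal WT log2 difference (x axis, bars are SE from the fit of all probe sets) of the 9 measured genes (rows) over all 12 arrays (grey circles) and without caudal WT animal 6 (orange squares). The median moves to -0.02 without this array, against -0.61 with it, and Ttr, Kcnj13, Sostdc1 and Kcne2 change from below 0 to above 0.

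In rostral cortex, where the high array enters the shared spread but not the group means, no KO minus WT difference of a tested member passed. The median over the 9 genes was 0.53 with 6 higher, where the median over all named genes was -0.02. Folr1 differed by 0.57 ± 0.94 (SE, limma adjusted p = 0.98), Clic6 (1434165_at) by 0.53 ± 0.40 (0.91) and Otx2 by -0.51 ± 1.46 (0.99). KO and WT arrays were apart on 1 of the 15 probe sets, the Ttr probe set 1454608_x_at (higher in KO, all values dim), against 11.2% of all probe sets. Its difference was 2.37 ± 2.24, and the SE was 1.17 without caudal WT animal 6 (fit of all probe sets). The other 3 Ttr probe sets overlapped and differed by -1.07, -0.38 and 1.64. Rostral KO animal 15 had the highest mean over the 9 genes outside caudal WT animal 6, 4.47, and its mean over 13 meningeal genes was 6.57 against 4.99 or lower on all other arrays. The part of the meninges in these values was not tested.

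How the genes moved together across single pieces was examined over the 11 arrays other than caudal WT animal 6, because a pooled correlation would rest on that array. Among the 36 pairs of the 9 genes, 17 had a Pearson r above 0, with a median of -0.02 and a range of -0.59 to 0.72. By permutation 3 pairs had an unadjusted p under 0.05 and none passed after adjustment over the 36 pairs (smallest adjusted p = 0.40). The highest r was that of Kcnj13 and Sostdc1 (r = 0.72, permutation p = 0.011, adjusted p = 0.40, Spearman rho = 0.43, permutation p = 0.19, adjusted p = 0.78), and r was 0.07 without the 2 arrays farthest from the median of Kcnj13, so it rests on those arrays. Clic6 and Kcnj13 followed (r = 0.62, permutation p = 0.042, adjusted p = 0.57, rho = 0.52, permutation p = 0.11, adjusted p = 0.64), with 0.26 without 2 such arrays. Kcnj13 and Aqp1 ran against each other (r = -0.59, permutation p = 0.048, adjusted p = 0.57, rho = -0.85, permutation p = 0.0018, adjusted p = 0.064), with r = -0.50 without 2 arrays. As deviations from their group means, the 36 pairs had a median r of 0.04. They ranged from -0.80 (Ttr and Kcne2) to 0.90 (Clic6 and Kcnj13). None passed (exact permutation within groups, smallest adjusted p = 0.25). The smallest p that permutation within groups can give here is 0.0023, so a single pair could not pass after adjustment over the 36 pairs. For single pairs this test therefore decides nothing. Most of the log2 values in these pairs are dim, which limits what their order can show.

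Probe sets of the same gene set a scale for these correlations. Over the 11 arrays the 4 Ttr probe sets correlated with each other at r = 0.43 to 0.76, while the 2 probe sets of Sostdc1 had r = 0.07 and the 2 of Kl r = 0.33. Ttr values on the 11 arrays thus repeated between probe sets to a degree that dim values of Sostdc1 did not. Some of the Ttr probe sets may share target sequence.

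Further choroid plexus genes, chosen with earlier results of these data known, were read on the same arrays. Of 36 measured, 14 had their highest value on caudal WT animal 6 and 3 lay more than 1 log2 unit above every other array there. Over all probe sets on the array these shares were 11.5% and 0.297%. The remaining genes of the list were highest on other arrays. Cp had its lowest value on caudal WT animal 6, 1.27 against 2.30 to 4.05 elsewhere. Calml4, which encodes a calmodulin-like protein, read 7.49 there and 1.06 to 4.68 on the other arrays. Htr2c, which encodes a serotonin receptor of the choroid plexus, read 7.20 there and 1.52 to 4.51 elsewhere, and Lbp, a lipopolysaccharide-binding protein, 6.33 there and 1.78 to 5.22 elsewhere. Their mean over 36 genes was 6.12 on caudal WT animal 6 and 5.24 to 5.58 elsewhere. In caudal KO against caudal WT, 23 of the 36 were lower with a median of -0.16 and none of the 19 tested passed with limma (smallest unadjusted p = 0.018, Vat1l, -0.72), and the median was 0.04 without caudal WT animal 6. Mdfic was the only one to pass in a region comparison, lower in caudal cortex averaged over both genotypes (-0.95, limma adjusted p = 0.0015, and a difference of -1.0 without caudal WT animal 6) and in KO alone. It was 1 of 19 tested genes of the list, where 2.35% (averaged) and 0.369% (KO) of all tested probe sets passed.

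Some genes of motile cilia were also highest on the same array. Of 17 multiciliated cell genes, 6 had their highest value on caudal WT animal 6, against 11.5% of all probe sets. The axonemal and radial spoke genes Dynlrb2 (6.32 against 4.41 or lower elsewhere), Ak7 (6.27 against 4.96 or lower) and Rsph1 (5.85 against 4.67 or lower) lay more than 1 log2 unit above every other array. Of all probe sets 0.297% did so. Foxj1, the regulator of motile cilia, read 5.21 there and 3.27 to 5.12 elsewhere, dim on all arrays. The remaining genes of the list were highest on other arrays. Of the 4 tested genes, 1110017D15Rik was highest on caudal WT animal 6 (6.60 against 4.26 to 5.81 elsewhere). The other tested genes were not: Dnah11 read 4.99 there and up to 6.05 elsewhere, Tppp3 5.26 and up to 6.00, and Mns1 6.17 and up to 6.57. Of the 17 genes, 8 were dim on all arrays.

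Genes of choroid plexus specification and of the cortical hem did not stand apart to this degree. The mean of 16 specification genes was 6.86 on caudal WT animal 6, the highest of the 12 arrays, against 5.32 to 6.46 on the others. Of the 16 genes 8 had their highest value on caudal WT animal 6, against 11.5% of all probe sets. Among them were Msx1 (6.51 against 2.13 to 6.19 elsewhere) and Bmp6 (4.50 against 1.01 to 3.90), and 0 of 16 lay more than 1 log2 unit above the others. The mean of 15 cortical hem genes was 6.62 on caudal WT animal 6, 6.62 on caudal KO animal 1 and 6.61 on caudal WT animal 4, against 5.20 to 6.43 on the other 9 arrays. Caudal KO animal 1 and caudal WT animal 4 thus had the same hem level as caudal WT animal 6, with most choroid plexus genes dim. Caudal KO animal 13, which came second for Ttr, had the lowest hem mean, 5.20.

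Markers of other tissues that make some of these genes were also read. Pigmented epithelium of the eye also makes Ttr, Kcnj13 and Otx2. Its gene Rpe65 was dim on all arrays (2.65 on caudal WT animal 6 and 1.04 to 2.40 elsewhere). Whether the tissue makes Rpe65 at embryonic day 14 was not tested. The mean over 10 such genes was 4.85 there and 3.80 to 5.25 elsewhere, with 6 of the 10 dim on all arrays. Of the 10, 3 had their highest value on caudal WT animal 6, against 11.5% of all probe sets: Rpe65, Mitf (5.73 against 3.38 to 5.19 elsewhere) and Rrh (4.92 against 1.31 to 4.48). The remaining genes of the list were highest on other arrays. Among them Rlbp1 had its lowest value on caudal WT animal 6 (8.63 against 8.95 to 9.90). Dct read 6.14 there and 4.95 to 10.53 elsewhere, and Slc45a2 3.28 and 1.57 to 4.98. The part of this tissue in the values was not tested. Meningeal genes had a mean of 4.99 there, against 6.57 on rostral KO animal 15 and 3.84 to 4.54 on the other 10 arrays. Diencephalic and thalamic genes had a mean over 11 genes of 5.03, within the 4.30 to 5.35 of the other arrays. Averaged over both genotypes, 9 genes of the lists other than further choroid plexus genes passed between regions, all lower in caudal cortex. They were Zic1 of the specification list (-2.91, limma adjusted p = 0.00023), Calb2 of the Cajal-Retzius cell list (-1.54, 0.00023), Dct (-3.35, 0.0031) and Rlbp1 (-0.62, 0.0056) of the pigmented epithelium list, Six3 of the diencephalic list (-1.90, 0.014), Pax6 (-0.42, 0.0035) and Tbr1 (-0.63, 0.026) of the dorsal cortex list, and Dlx2 (-1.06, 0.0087) and Dlx1 (-1.16, 0.027) of the ganglionic eminence list. Over all 24676 tested probe sets 2.35% passed, with 404 of these 580 lower in caudal cortex. Tested were 10 specification, 8 Cajal-Retzius cell, 8 dorsal cortex, 8 ganglionic eminence, 6 diencephalic and 3 pigmented epithelium genes. No gene passed in the multiciliated (4 tested), hem (12), meningeal (6), vascular (12), red blood cell (6) or microglia and macrophage (7) lists. Without caudal WT animal 6 the difference of Zic1 was -2.94, and that of the other 8 lay between -3.23 and -0.40.

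**Figure D4:**
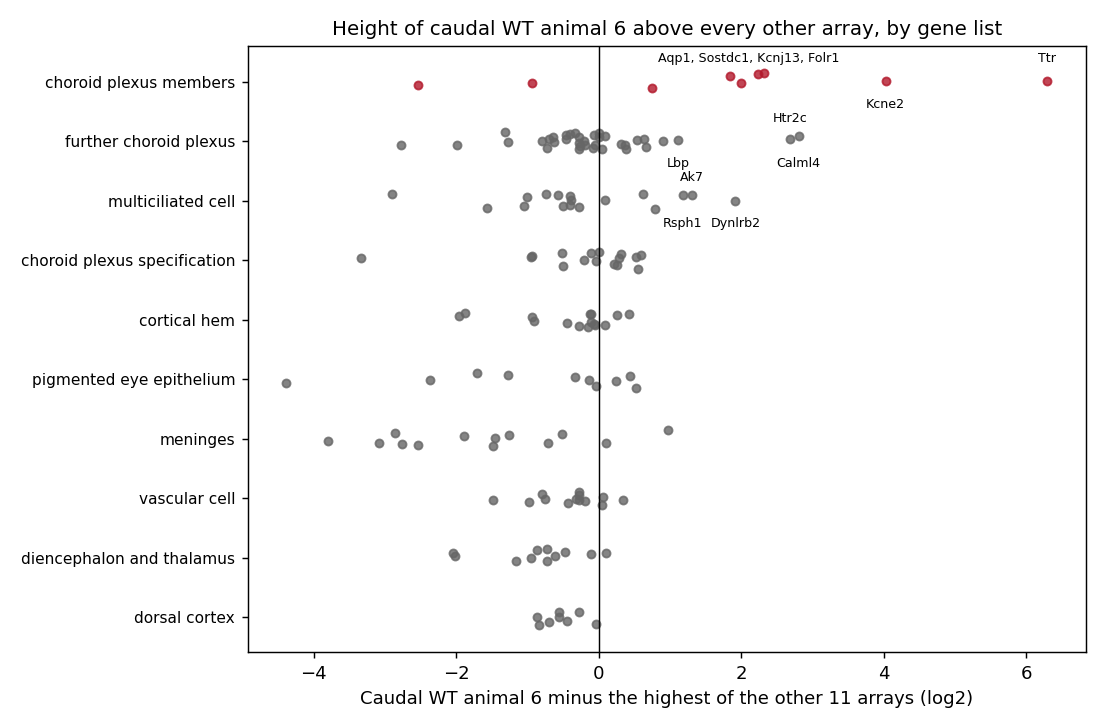
Value on caudal WT animal 6 minus the highest value among the other 11 arrays (x axis, log2), with 1 point per gene on its probe set of highest mean, for the choroid plexus genes (red) and 9 marker lists (grey). Points right of 0 have their highest value on caudal WT animal 6. Ttr (6.30) and Kcne2 (4.03) lie farthest right, followed by Calml4 and Htr2c, and no gene of the hem or dorsal cortex lists lies more than 1 log2 unit above the other arrays.

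The genes other than the 9 members whose values most resembled the mean of the 9 members over the 12 arrays were found among 3344 genes that were tested and spanned at least 1 log2 unit. The nearest were Lhfpl3 (r = 0.882), Nme5 (0.869), Vat1l (0.838), Sgk3 (0.836) and Gal3st1 (0.829), followed by Ptgds, Npnt, Marchf4, Scg2 and Shisa4 (0.791 to 0.817). Vat1l is also on the further choroid plexus list. Nme5, a gene of ciliated cells, read 6.74 on caudal WT animal 6 and 4.97 to 6.03 elsewhere, and Ptgds, which encodes the prostaglandin D synthase secreted into cerebrospinal fluid, read 6.37 against 5.01 to 6.08. All 10 had their highest value on caudal WT animal 6, which the member mean largely fixes.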

How the data were processed

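Deposited values were used as given: judged from its values, the authors' deposited table is on a log2 scale, with 45101 probe sets, 12 arrays and values from -3.81 to 14.02, and is already on 1 scale between arrays (array medians 5.21 or 5.22). The method of background correction, normalisation and summarisation is not given in the sources used here. Per the labels' protocols, amplification started from 400 ng of total RNA and the product carried biotin. The platform annotation named 1 gene for 34958 probe sets, several for 932 (not used) and none for 9211.

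All 12 arrays entered 1 limma 3.58.1 fit (R 4.3.3), with 1 mean per group and a variance prior that follows intensity (degrees of freedom 8 for the residual, 4.56 for the prior), over the 24676 probe sets above 5.21 on at least 3 arrays. P-values are two-sided and adjusted by Benjamini-Hochberg over all tested probe sets, with a threshold of 0.05. A second fit held all probe sets and gives the SE of dim members. Correlations used 100000 permutations. A gene was represented by its probe set of highest mean. The fit was tested on simulated data. The members and gene lists were chosen with earlier results of these data known. All members were named, other list genes where they passed, had the smallest p in a comparison described or, chosen after their values were seen, were high on 1 array. Nothing says that arrays of a group come from separate litters, so p-values measure the spread between these arrays, and their number limits the precision.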

Additional observations from a re-analysis of the deposited data

How the results depend on the processing

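Alternatives were quantile normalisation, median centring, dim values raised to 5.21, no filter, a filter at 7.55, 1 probe set per gene, array weights, robust moderation, a constant variance prior, a fit of the compared groups alone, an additive term for animals 13 to 16, leaving out both arrays with high Xist, and leaving out each array in turn. Leaving out caudal WT animal 6 together with the filter, and correlations over 11 arrays, were chosen after seeing the data. The pairs planned with Enpp2 could not be formed, which left 36. The number of member probe sets past the threshold was the same in 161 of 172 values. For caudal minus rostral KO cortex it was 0, and 1 (Otx2) with array weights, with the additive term and without caudal WT animal 6 with or without the filter; leaving out single arrays gave 0 to 1. For caudal minus rostral WT cortex it was 0, and 1 without caudal WT animal 6 with or without the filter, with 0 to 1 over single arrays. Averaged over genotypes it was 1, and 0 with dim values raised and with the filter at 7.55, which Otx2 does not pass, with 0 to 1 over single arrays. Over all tested probe sets, single arrays left out and other alternatives moved the number past the threshold to 20 to 572 for caudal minus rostral KO cortex (91 as reported), 5 to 265 for WT (83), 323 to 1219 averaged over genotypes (580), 0 to 8 for KO minus WT averaged over regions (2), 0 to 5 for it in caudal cortex (0) and 0 to 3 in rostral cortex (0). Of 687 gene values under alternatives, 47 changed sign, none of them past the threshold. Ttr in caudal cortex ranged from -4.05 to 2.11. Dim signal limits 6 of the 9 genes, which had no test. No paired analysis was possible because every array has its own animal number.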

Other observations

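Genes whose values most resembled Otx2 over the 11 arrays other than caudal WT animal 6 were found in a search added after the values were seen. Pgm1 (r = 0.987), Il17rd (0.986), Zic1 (0.979), Gfra1 (0.976) and Pcca (0.975) were the nearest. Otx2 itself differs by region on these arrays, so the choice fixes that such genes differ between regions in the same direction. Zic1, a zinc finger factor, read 7.31 to 8.96 in caudal KO, 7.95 to 8.78 in caudal WT, 10.70 to 11.86 in rostral KO and 10.65 to 11.41 in rostral WT. Il17rd, an inhibitor of FGF signalling, read 5.42 to 5.69 in caudal KO, 5.33 to 5.79 in caudal WT, 6.74 to 8.14 in rostral KO and 7.38 to 7.49 in rostral WT. On caudal WT animal 6, where Otx2 read 7.00 as on rostral arrays, Zic1 read 8.53 and Il17rd 5.53, both inside the range of the other caudal pieces. Pgm1 was an exception: it read 7.27 there, against 6.42 to 6.54 in caudal KO, 7.34 to 7.75 in rostral KO and 7.55 to 7.67 in rostral WT.

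Kcne2 and Clic6 lie near each other on mouse chromosome 16, with 5 protein-coding genes between them in the RefSeq annotation (GRCm38.p6), of which 4 have a probe set that names them alone. None of the 4 had its highest value on caudal WT animal 6. Rcan1 read 9.24 there and 8.82 to 9.25 elsewhere, Smim11 8.95 and 8.60 to 9.20, and Fam243 4.50 and 0.97 to 5.91. Kcne1, dim on all arrays, read 1.63 there and 1.09 to 3.53 elsewhere.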
